A study of Mus musculus with 4 samples.

Results

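Of the 39429 non-control probes on the arrays, 11 belonged to 10 transcription factor genes that are known for the making of the spleen or for the identity of venous and sinusoidal endothelium. These were Nkx2-3, Tlx1, Tcf21, Nr2f2, Gata4, Gata6, Maf, Wt1, Meox1 and Tbx3, chosen by the gene name given for each probe. Maf had 2 probes and each other gene had 1. All 10 genes were among the 17362 genes tested, but Tlx1 and Wt1 entered only through ACKR4-negative cells, where they were brighter. RNA came from spleens of Ackr4GFP/wt mice, which carry green fluorescent protein at 1 copy of the Ackr4 locus, so that both groups shared this genotype. Living cells without the leukocyte protein CD45 and with the endothelial protein CD31 were sorted by the reporter into ACKR4-positive and ACKR4-negative cells, with 2 arrays per group. There were 2 independent sorts, each from a pool of 2 to 3 mice, whose age, sex and strain are not given in the sources used here. Each sort supplied both groups, and the replicate number marks the sort. The reporter follows the Ackr4 locus, so a group is a gate on a reporter and may hold more than 1 cell type.

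The spleen forms from a mesenchymal condensation beside the stomach, and Tlx1, Nkx2-3, Tcf21 and Wt1 are among the factors its growth depends on in mice. In the adult organ, blood percolates through a bed of sinusoids whose lining differs from arterial and capillary endothelium. Nr2f2 (COUP-TFII) is the classic factor of venous identity, while Gata4 and Maf are known for the sinusoidal state of liver endothelium. The comparison asks how these factors differ between CD31-positive spleen cells with and without the ACKR4 reporter.

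What each array reads is a 60-base probe, and the first 30 bases are shown for the 3 members that were called and for Maf and Nkx2-3, whose groups overlapped, so that the measured transcript can be traced (no letter is marked).
Tbx3: ctttatggtgttttggattggtgtactgag
Meox1: ctaagattacatcaagctaattgtgcaagg
Nr2f2: ggcccttttccttgtttgctttgtgttagc
Maf: tgggtatgtgtagttcttgctataccatgg
Nkx2-3: ggcatggaactcagcggaggaaaggatgcc
On the mm9 build the Tbx3 probe lies on chromosome 5 at 120134511 to 120134570, that of Meox1 on chromosome 11 at 101738847 to 101738906 and that of Nr2f2 on chromosome 7 at 77496873 to 77496932. The main Maf probe lies on chromosome 8 at 118227736 to 118227795. The Nkx2-3 probe, on chromosome 19 at 43689699 to 43689757, and the Tlx1 probe, on chromosome 19 at 45231061 to 45231120, are 1.54 Mb apart. No exon annotation of this build was used here.

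Levels below are the log2 processed signal minus the 75th percentile of that array, so that 0 equals the percentile and each unit is a doubling. Ackr4, whose locus drove the sort, stood at -7.53 and -7.50 without the reporter (replicates 1 and 2) and at -0.21 and 2.55 with it, at least 107.4-fold higher, as the labels have it. That fold holds for the processed signal, and with normexp background correction the log2 fold change of Ackr4 was 4.81. Each pair of levels below is given as replicate 1, then replicate 2. Between 54.9% and 58.3% of probes were well above background per array, and spiked-in control RNA was dimmer on ACKR4-negative replicate 1 (median signal 837) than on the other 3 arrays (2749 to 3489). Pan-endothelial markers were well above background on all 4 arrays for 12 of 12 genes. With 2 arrays per group, their number limits the precision of every value.

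Tbx3, Meox1 and Nr2f2 differed between the groups, the first lower and the others higher in ACKR4-positive cells, and the other 7 members were not called. Nkx2-3, Maf and Gata6 had strong signal on both sides of the sort. Tlx1, Tcf21 and Wt1 had lower levels in ACKR4-positive cells in both sorts, and Gata4 was dim throughout. With limma's test and Benjamini-Hochberg adjustment over all tested genes (threshold 0.05), 3 of 10 members were called, against 5.62% of all tested genes. Of all tested genes, 1.91% were called higher and 3.71% lower in ACKR4-positive cells. The median log2 fold change of the members was -0.08, beside 0.04 over all tested genes. With the sort as a replicate block, 6 of 10 members were called, beside 15.3% of tested genes. Of these, 2 were higher, beside 6.75% of tested genes, and 4 lower, beside 8.55%. Leaving out 1 array left 1 member called, Tbx3, or 2 without ACKR4-positive replicate 1, Tbx3 and Tlx1. The groups did not overlap for 8 of 10 members, beside 44.9% of tested genes. In 3 members the ACKR4-positive arrays were the higher ones, beside 23.3% of tested genes, and in 5 the lower ones, beside 21.6%. These 5, and the 4 called lower with the block, include Tlx1 and Wt1, which entered the test only through ACKR4-negative cells.

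**Figure D1:**
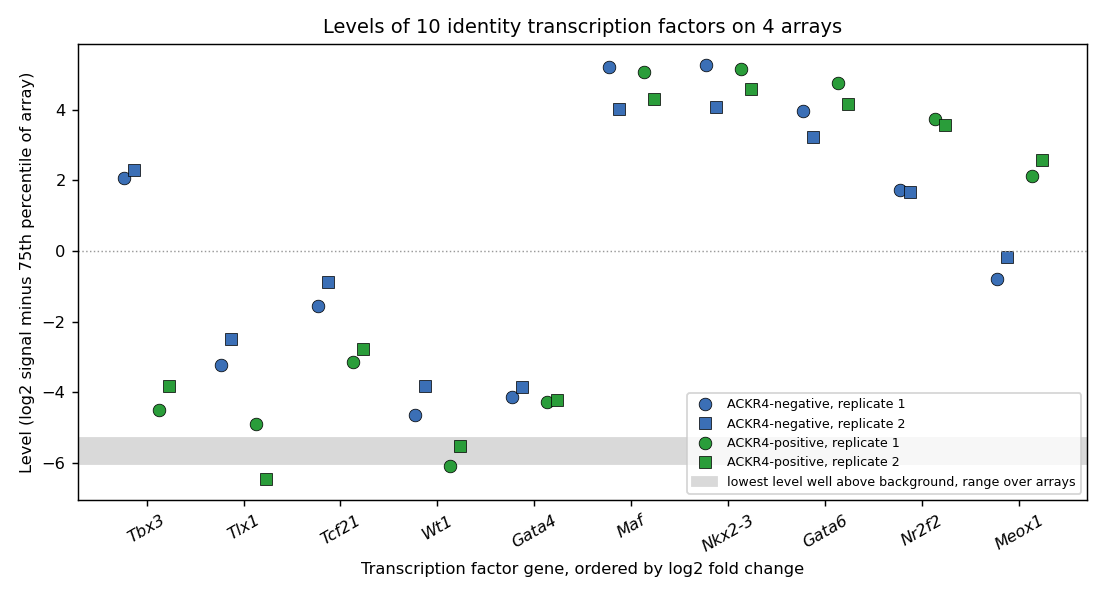
Levels (vertical axis, log2 signal minus the 75th percentile of the array) of the 10 genes (horizontal axis, ordered by log2 fold change) on 4 arrays; blue is ACKR4-negative, green ACKR4-positive, circles replicate 1 and squares replicate 2, and the grey band spans the lowest levels well above background. Tbx3 stands at 2.07 and 2.30 in ACKR4-negative against -4.51 and -3.82 in ACKR4-positive cells, while the points of Maf and Nkx2-3 overlap between groups.

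Tbx3, a T-box repressor known from limb, mammary gland and cardiac conduction development, had levels of 2.07 and 2.30 without the reporter and -4.51 and -3.82 with it. Both ACKR4-negative arrays were far above both ACKR4-positive arrays. In the authors' deposited table, where the scaled intensities are linear, the same probe stood at 6201 and 7536 against 57 and 112. Its log2 fold change was -6.35 ± 0.36 (SE, n = 2 arrays per group; adjusted p = 0.00706 by limma), an 81.5-fold lower signal. With normexp background correction it was -5.08. The difference was -6.58 in replicate 1 and -6.12 in replicate 2, and 0.478% of tested genes had a larger absolute change. The low side was still measured, since the probe was well above background on all 4 arrays. The 4 spots of the probe had a log2 SD of 0.07 to 0.34 per array. The call held without any single array, with adjusted p-values up to 0.0223. In bulk RNA, fewer cells of a type and less RNA per cell cannot be told apart, for this gene and for the others.

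Meox1, a homeobox gene of mesoderm and somites, had levels of -0.79 and -0.18 in reporter-negative and 2.13 and 2.56 in reporter-positive cells. Both ACKR4-positive arrays were higher, and the groups did not overlap. It rose by 2.84 ± 0.36 on the log2 scale (adjusted p = 0.0244 by limma), 7.14-fold, with differences of 2.92 and 2.75 in the 2 sorts. The difference varied little between sorts, yet each fit with 1 array left out lost the call, with log2 fold changes of 2.53 to 3.14 and adjusted p-values of 0.0566 to 0.101.

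Nr2f2, a nuclear receptor that restrains Notch signalling and arterial genes in veins, had levels of 1.72 and 1.67 in ACKR4-negative cells, against 3.75 and 3.56 in ACKR4-positive cells. The 2 arrays of each group lay close together, well apart from the other group. It rose by 1.96 ± 0.27 (adjusted p = 0.0294 by limma), 3.89-fold, with differences of 2.03 and 1.89 in the 2 sorts. No fit with 1 array left out called it, with log2 fold changes of 1.87 to 2.05 and adjusted p-values of 0.0703 to 0.168.

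The differences of the 2 sorts are set against each other in the plot of within-sort differences. The 3 called members had differences of like size in both sorts, while those of Tlx1 were -1.67 and -3.98.

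**Figure D2:**
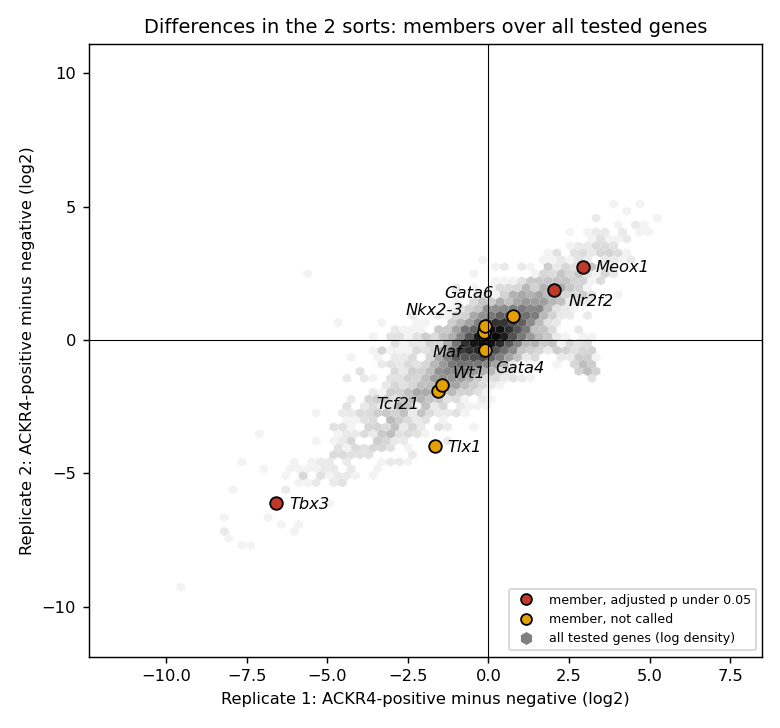
Difference in level between ACKR4-positive and ACKR4-negative cells (log2) in replicate 1 (horizontal axis) and replicate 2 (vertical axis); grey hexagons give the density of all 17362 tested genes on a log scale, red points the called and orange points the other members. Tbx3 lies at -6.58 and -6.12 and Meox1 at 2.92 and 2.75, whereas Maf and Nkx2-3 lie near 0 with opposite signs in the 2 sorts.

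The spleen-forming factors Tlx1, Tcf21 and Wt1 were lower in ACKR4-positive cells on every array, without passing the test. Tlx1, the homeobox gene without which mice are born with no spleen, had levels of -3.23 and -2.49 without the reporter and -4.90 and -6.47 with it. On ACKR4-positive replicate 2 it was not well above background, its 4 spots had a log2 SD of 0.54, and the authors' deposited table lists it at 15, the lowest value of that table. The log2 fold change was -2.82 ± 0.63 (adjusted p = 0.0993 by limma, and 0.0298 with the replicate block), and without ACKR4-positive replicate 1 it was -3.61 (adjusted p = 0.0475). With normexp background correction it was -1.04. Tcf21, a basic helix-loop-helix factor of visceral mesenchyme, had levels of -1.56 and -0.88 against -3.14 and -2.78. The groups did not overlap and all 4 arrays were well above background. Its log2 fold change was -1.74 ± 0.36 (adjusted p = 0.0842, and 0.00750 with the replicate block). Wt1, a zinc finger factor of mesothelium and stromal precursors, had levels of -4.65 and -3.83 against -6.09 and -5.53, and was well above background on neither ACKR4-positive array. Its measured log2 fold change of -1.57 ± 0.42 (adjusted p = 0.151, and 0.00978 with the replicate block) corresponds to at least 2.69-fold on the processed signal. With normexp it was -0.46.

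Nkx2-3, a homeobox gene needed for spleen microarchitecture and for the addressin Madcam1 on spleen vessels, had levels of 5.28 and 4.07 in reporter-negative and 5.17 and 4.59 in reporter-positive cells. The groups overlapped, and each group was higher in replicate 1 than in replicate 2. The log2 fold change was 0.20 ± 0.51 (adjusted p = 0.924), with a 95% interval of -1.16 to 1.57. With the replicate block the standard error was 0.25 and the interval -0.44 to 0.85, which leaves out a 2-fold change in either direction. Maf, a leucine zipper factor of liver sinusoidal endothelium and of macrophages and T cells, showed the same pattern at 5.21 and 4.01 against 5.06 and 4.32. Its log2 fold change was 0.08 ± 0.54 (adjusted p = 0.974, interval -1.34 to 1.50, and -0.52 to 0.67 with the block). The second Maf probe, on chromosome 8 at 118207273 to 118207332 (mm9), gave levels of -0.77 and -1.32 against -0.71 and -0.90, also with overlapping groups. Without ACKR4-negative replicate 2 the sign of the main estimate turned for both genes, to -0.40 for Nkx2-3 and -0.52 for Maf, and it turned too without ACKR4-positive replicate 1.

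Gata6, a zinc finger factor of endoderm, heart and vessel wall, had levels of 3.97 and 3.24 in ACKR4-negative cells, against 4.74 and 4.16 in ACKR4-positive cells. ACKR4-positive cells were higher in both sorts, by 0.77 and 0.92, and the groups were separated by 0.18. The log2 fold change was 0.84 ± 0.41 (adjusted p = 0.444 by limma, interval -0.23 to 1.92, and adjusted p = 0.0612, interval 0.30 to 1.39 with the block). Gata4, which keeps liver endothelium in its sinusoidal state, had levels of -4.14 and -3.86 against -4.27 and -4.22. It was well above background on all 4 arrays but dim on each, with deposited intensities of 78 to 100. Its log2 fold change was -0.24 ± 0.28 (adjusted p = 0.799, interval -0.97 to 0.49, and -0.79 to 0.31 with the block).

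No member was called for a difference between the sorts. In the fit with both terms, replicate 2 differed from replicate 1 by -0.97 ± 0.23 for Maf, -0.89 ± 0.25 for Nkx2-3 and -0.66 ± 0.21 for Gata6 on the log2 scale, with 0 of 10 members called (adjusted p = 0.0737, 0.0957 and 0.119, against 5.54% of tested genes called). Beside these, the group differences of Maf and Nkx2-3 were 0.08 and 0.20, and the sizes of the 2 kinds of difference were not tested against each other.

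Paralogues of the members moved in both directions. Of 40 paralogues listed for the members, 20 were tested. Of these 2 rose and 2 fell, beside 1.91% and 3.71% of all tested genes, and 16 were not called. With the replicate block 3 rose and 5 fell, beside 6.75% and 8.55%. The stricter filter, which requires all 4 arrays well above background, called 1 of 13, beside 441 of all 15705. Calls were also lost with any 1 array left out. The median log2 fold change of the 20 was 0.05, beside 0.04 over all tested genes. Msc, a bHLH relative of Tcf21, was well above background on both ACKR4-positive arrays and on neither ACKR4-negative array. It rose by 3.43 ± 0.33 (adjusted p = 0.0143 by limma), at least 3.17-fold, whereas Tcf21 stood at -1.74.

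Meox2, a homeobox gene of quiescent endothelium and the paralogue of Meox1, had levels of -4.49 and -3.66 in reporter-negative and -6.67 and -6.45 in reporter-positive cells. It fell by 2.48 ± 0.39 (adjusted p = 0.0400), at least 3.02-fold, opposite to Meox1, and the difference between the paralogues was not tested. Gata1, which red cell and platelet precursors need, fell by 7.28 ± 0.51 on the log2 scale, at least 81.2-fold (adjusted p = 0.00974), beside values of 0.36 for Gata2 and -0.03 for Gata5. Nr2f1 stood at 0.36 and Nr2f6 at -0.53, beside the rise of Nr2f2. Tbx2, a repressor related to Tbx3, had a value of -0.85 ± 1.46 with levels of -2.14 and -6.24 on the ACKR4-positive arrays. The 20 paralogues not tested included Tlx2, Tlx3, Gata3, Tbx5, Tbx18 and Tbx20. Leaving out any single array lost the call of Meox2 (adjusted p up to 0.146), and leaving out ACKR4-negative replicate 1 lost that of Msc (adjusted p = 0.0565). With normexp, Gata1 stood at -4.19, Msc at 0.72 (adjusted p = 0.295) and Meox2 at -0.65 (adjusted p = 0.508).

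**Figure D3:**
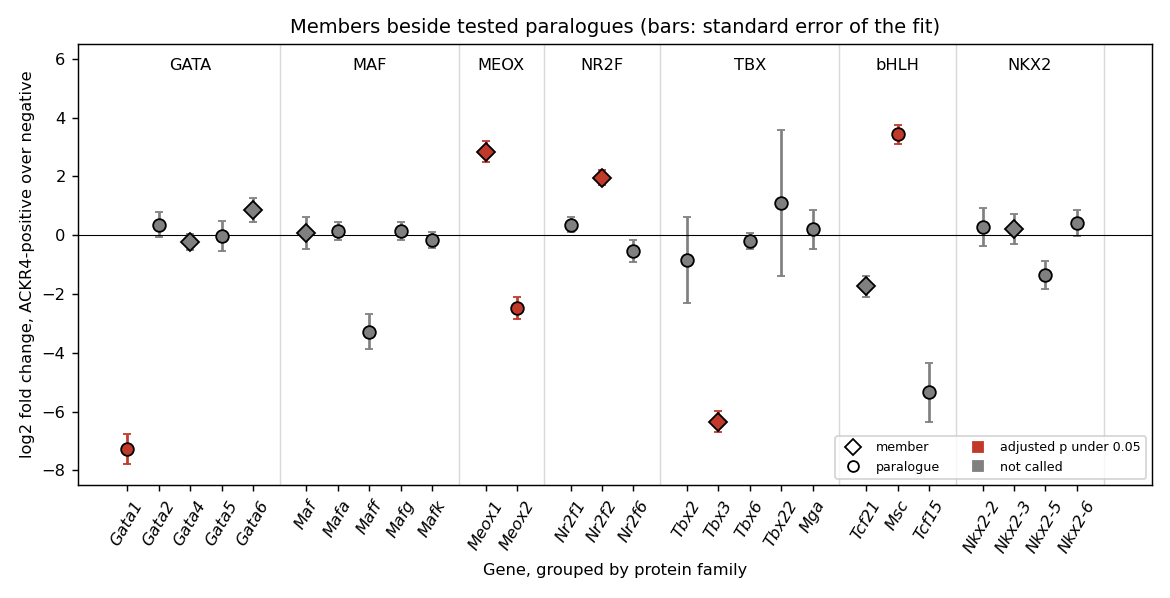
log2 fold change between ACKR4-positive and ACKR4-negative cells (vertical axis) for members (diamonds) and tested paralogues (circles, 1 left out), grouped by protein family; bars are the standard error of the fit with 2 arrays per group, and red marks an adjusted p under 0.05. Meox1 at 2.84 and Meox2 at -2.48 point in opposite directions, and Tbx3 at -6.35 lies below the values of the other tested T-box genes.

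Cofactors and binding partners of the members include the FOG, MEIS and E-protein genes. They were called in 0 of 21 tested genes by limma, beside 5.62% of all tested genes. At an unadjusted p under 0.05 there were 4, beside 2823 of all 17362. With the replicate block 3 rose and 3 fell, beside 6.75% and 8.55%. Those were Zfpm2, a GATA cofactor, at 2.59 (block adjusted p = 0.00647), Meis2 at 1.24 and Tle4 at 1.09 upward, and the E-protein genes Tcf3 and Tcf4 at -1.72 and -1.28 and the corepressor gene Tle3 at -1.28 downward. These 6 were named after their values were seen. Of 17 other genes of spleen formation, 8 were tested and 1 fell, beside 3.71% of all tested genes. It was Bmp4, a secreted growth factor, at -1.66 ± 0.27 (adjusted p = 0.0449 by limma). Leaving out any single array lost that call (adjusted p up to 0.278), as did normexp (0.108), no filter (0.0741), the stricter filter (0.0565) and a trended prior (0.0584). The block called 1 gene of this list higher and 3 lower, beside 6.75% and 8.55% of all tested genes. Nkx2-5, the paralogue of Nkx2-3 that acts in spleen mesenchyme, stood at -1.36 ± 0.47 (adjusted p = 0.267).

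Genes listed as reported targets of these factors were called in 8 of 22 tested genes, beside 5.62% of all tested genes. Of these 1 rose and 7 fell, beside 1.91% and 3.71% of all tested genes. All 22 were well above background on both ACKR4-negative arrays, but only 16 on both ACKR4-positive arrays. The rest entered the test only through ACKR4-negative cells, so the filter favoured falls in this list. With no filter on dim probes 8 of 27 genes of the list were called, beside 856 of all 30195. Clec4g, a sinusoidal lectin, rose by 5.05 ± 0.63 (adjusted p = 0.0238). The largest falls were those of Nrp1, a semaphorin and VEGF co-receptor, at -8.11 ± 0.58 (at least 148-fold), of the Notch target Hey1 at -7.48 ± 0.32, and of Spry1, a feedback inhibitor of receptor kinases, at -6.81 ± 0.51 (at least 62.6-fold). Hey2 and Lamb1, well above background on neither ACKR4-positive array, were at least 12.3-fold and 11.4-fold lower, and Tgfb2 and Efnb2 stood at -4.32 and -3.91. With normexp the values of Nrp1, Hey1, Spry1, Hey2, Lamb1 and Tgfb2 were -5.03, -5.64, -3.88, -1.97, -1.71 and -2.67. With the stricter filter 3 of 16 genes of the list were called, beside 441 of all 15705 genes tested with it. Tgfb2 lost its call without ACKR4-positive replicate 1 or 2 (adjusted p = 0.0812 and 0.0796), and Lamb1 and Tgfb2 were not called with normexp (adjusted p = 0.0539 and 0.0583). Nrp1 and Hey2 are genes that Nr2f2 is known to restrain in veins, and a link between their falls and Nr2f2 was not tested here. The scavenger receptor genes Stab1 and Stab2 stood at 1.40 ± 0.31 and 0.84 ± 0.34 and were not called (adjusted p = 0.0975 and 0.351). The block called Stab1 (adjusted p = 0.0128). Madcam1, the addressin gene that depends on Nkx2-3, had levels of 1.03 and -3.70 in ACKR4-negative cells, against -3.70 and -3.95 in ACKR4-positive cells. It was high on ACKR4-negative replicate 1 and low on the other 3 arrays, and its value of -2.49 ± 1.60 was not called (adjusted p = 0.594). Nkx2-3 did not share this pattern.

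Mural and platelet markers were lower in ACKR4-positive cells. Fibroblastic reticular markers were lower in both sorts for 6 of 10 tested genes and higher for 2, with 0 called (2 with normexp). Mesothelial markers, with Wt1 among them, and leukocyte markers lay in both directions with 0 genes called. Mural genes were lower in both sorts in 9 of 9 tested genes, beside 5989 of all 17362 tested genes. Of the 9, 4 had fallen, beside 3.71% of all tested genes, and 8 with the replicate block, beside 8.55%. With the stricter filter 2 of 5 mural genes were called, beside 441 of all 15705 genes tested with it. All 9 were well above background on both ACKR4-negative arrays, but only 5 on both ACKR4-positive arrays. The rest entered only through ACKR4-negative cells, so the filter favoured falls in this list. With no filter on dim probes 3 of 10 mural genes were called, beside 856 of all 30195. The summed level of the 9 tested genes on the log2 scale was 5.91 and 6.67 in ACKR4-negative against 1.56 and 1.76 in ACKR4-positive cells. Kcnj8 and Abcc9, pericyte channel genes, stood at -5.16 and -4.69 and Myh11 of smooth muscle, not well above background on either ACKR4-positive array, was at least 4.99-fold lower. Fibroblastic reticular genes were called in 0 of 10 tested genes (5 at an unadjusted p under 0.05), beside 5.62% of all tested genes. With the block 2 were higher and 4 lower, beside 6.75% and 8.55%. Reticular summed levels were 4.09 and 4.41 against 3.06 and 3.29. Cxcl12 alone made up 62.1% to 82.9% of that sum, and without it the summed levels were 1.54 and 2.08 against 1.49 and 1.89. Cxcl12 and Pdgfrb stood at -1.42 and -3.15, and Cxcl13, well above background on neither ACKR4-positive array, was at least 3.64-fold lower in them. Dcn and Col3a1, matrix genes, stood at 2.37 and 1.71 (adjusted p = 0.337 and 0.300, and 0.0162 and 0.0326 with the block). The defining genes Pdgfra, Fap, Pdpn and Tnfsf11 were not well above background on both arrays of either group. The part of mural and reticular cells in the differences of Tbx3, Tlx1, Tcf21 and Wt1 was not tested.

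Mesothelial genes were tested for 3 of 10 entries, Wt1 among them, and the defining genes Upk3b, Upk1b, Lrrn4, Bnc1, Krt8, Krt18 and Krt19 were not well above background on both arrays of either group. Their summed levels were -2.14 and -2.29 without the reporter and -3.47 and -1.18 with it. Msln was at least 6.12-fold higher (adjusted p = 0.0812 by limma) and Gpm6a stood at -1.64, neither called. The block called Msln and Wt1, beside 15.3% of all tested genes. Platelet genes fell in 8 of 10, beside 3.71% of all tested genes, with summed levels of 6.49 and 7.73 against 0.33 and 1.40. With the stricter filter 3 of 6 platelet genes were called, beside 441 of all 15705 genes tested with it. All 10 were well above background on both ACKR4-negative arrays but only 6 on both ACKR4-positive arrays, so the filter favoured falls. Clec1b stood at -6.54, and Itga2b and Tubb1, well above background on neither ACKR4-positive array, were at least 143-fold and 54.5-fold lower. Of 10 erythroid genes 5 were tested and 1 had fallen, Epor at -4.17, beside 3.71% of all tested genes. The number called was higher without ACKR4-negative replicate 2. Erythroid summed levels were 8.55, 4.61, 4.04 and 5.90 in ACKR4-negative and then ACKR4-positive replicates 1 and 2. Leukocyte genes were called in 0 of 8 tested genes (1 at an unadjusted p under 0.05), beside 5.62% of all tested genes. The block called 2, beside 15.3%. Leukocyte summed levels were 1.71 and 2.61 against 0.55 and 1.45. Ptprc, which encodes CD45, was not well above background on both arrays of either group. Lyz2, Cd3e and S100a9 stood at -5.44, 0.32 and -2.25. The part of these cells in the members' values was not tested either.

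**Figure D4:**
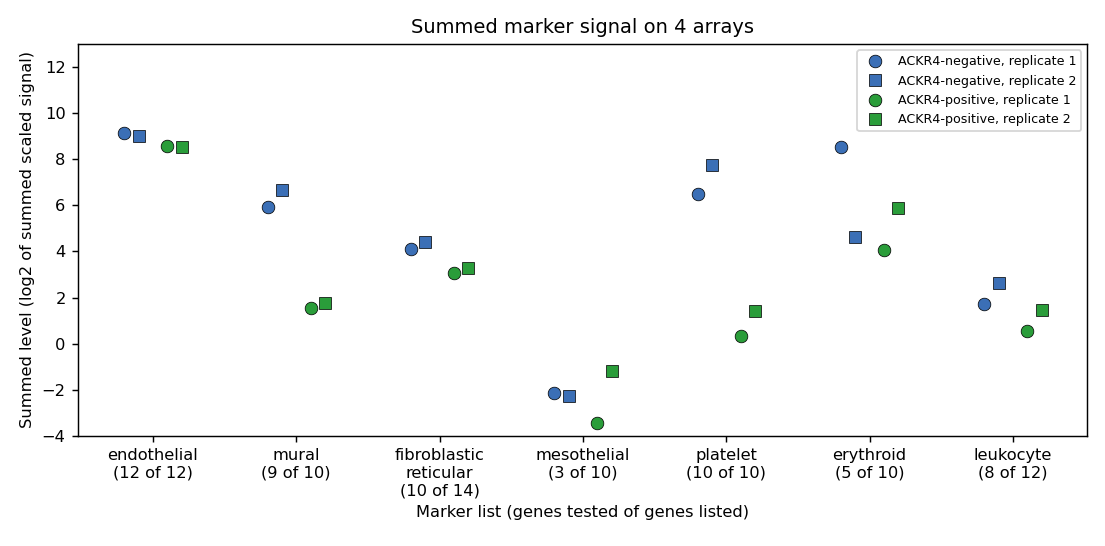
Summed level of the tested genes of 7 marker lists (vertical axis, log2 of the summed scaled signal) on 4 arrays, with colours for groups and shapes for replicates; the axis names give genes tested of genes listed. Mural sums are 5.91 and 6.67 in ACKR4-negative against 1.56 and 1.76 in ACKR4-positive cells, while the endothelial sums of both groups lie between 8.51 and 9.15.

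Of 12 pan-endothelial genes 3 fell, beside 3.71% of all tested genes. With the block 1 rose and 4 fell, beside 6.75% and 8.55%. Calls were lost with any 1 array left out, and 1 gene was called with quantile normalization, median centring or the stricter filter. Summed levels were 9.15 and 8.99 against 8.56 and 8.51. The 3 that fell were Kdr, the main VEGF receptor gene, at -2.71, the sialomucin gene Emcn at -5.24 and the adhesion gene Esam at -1.92. Lymphatic markers, which include the Nr2f2 partner Prox1, were tested for 5 of 8 entries, with Sema3d risen at 4.38, Mmrn1 fallen at -5.71 (1 gene of the list called with the stricter filter or without replicate 2 of ACKR4-negative or replicate 1 of ACKR4-positive cells) and Flt4 at 0.90 and not called. Prox1 had levels of -0.32 and -2.64 against -0.06 and -2.07, higher in replicate 1 of both groups. Marginal sinus genes, of which 6 of 8 were tested, held the rise of Ackr4 and 3 falls, beside 1.91% and 3.71% of all tested genes. The falls were those of Enpp2 at -7.75, Cd34 at -2.25 and Chst2 at -1.71. With the stricter filter 2 of the list were called in all, and calls were lost with any 1 array left out.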

How the data were processed

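RNA of CD31-positive spleen cells, 6 to 20 ng per sample, was hybridised to 4 Agilent 1-colour arrays, which the file headers place on 1 slide in 1 scan. The authors deposited intensities that, per the file headers, came from Feature Extraction 10.7.3.1 by Agilent, which subtracted and detrended the background of an array and set surrogates for low values. Probe positions in these files are mm9. The flags for well above background and for outliers, coded 0 or 1 (other), are the deposited ones per the file headers. How the authors made the deposited value table is not given in the sources used here.

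Spots marked as outliers were left out (1.91% to 1.96% per array), log2 signals were averaged over the 4 spots per probe, and the 75th percentile of the array was subtracted. Probes entered the test if both arrays of at least 1 group had over 50% of their spots well above background, and the tested probe with the highest mean level stood for a gene. A RefSeq gene list named 27508 probes by accession and 3544 by symbol. Groups were compared by limma 3.58.1 in R 4.3.3 (lmFit and eBayes, 2-sided), and errors are standard errors. The fit was checked on simulated data with independent noise. Those data held no difference between sorts, so the check could not show how such a difference affects the calls. A fold is given as at least a value where both arrays of the dimmer group were not well above background. For it, levels on those arrays under their lowest level well above background were raised to that level. Such a fold holds for the processed signal only and is no minimum under other background corrections. With normexp the changes of Ackr4, Wt1, Msc, Meox2, Gata1, Nrp1, Spry1, Hey2 and Lamb1 were smaller than these folds. For Msln, Myh11, Cxcl13, Itga2b and Tubb1 no normexp value is given here.

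The replicate numbers pair the arrays, since the titles give both arrays of a number the same mouse number, and deviations from the group means correlated at 0.605 across genes. That fit is the replicate block. The p-values test the group difference against a variance that limma moderates over all tested genes, with 2 pooled sorts per group. In the block fit the difference between the sorts is taken out of that variance. Members and lists were chosen with earlier results of these data known, so no list test was run. Some genes that the counts include are not reported here by name. By rule, the text named all 10 members, Ackr4, the called genes of each list (where over 6 were called, the 3 largest rises and 3 largest falls) and, per marker list, up to 3 genes with the smallest p. Others were named after their values were seen, among them Stab1, Stab2, Madcam1, Prox1, Chst2, Nkx2-5, B130024G19Rik, the paralogues and cofactors not called and the further falls among reported targets. Promoters are RefSeq sequences of GRCm38.p6 (4 of 10 members matched). Python 3.11.15 and matplotlib 3.10.9 drew the figures.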

Additional observations from a re-analysis of the deposited data

How the results depend on the processing

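Tbx3, Meox1 and Nr2f2 stayed called under each of the 11 alternatives of background correction, scaling, filter, floor, probe choice, spot choice, prior and source of values, and the other 7 members stayed uncalled there. The stricter filter tested 8 of the 10 members, without Tlx1 and Wt1, and called 441 genes overall. With the replicate block 2656 genes and 6 members were called, with Tlx1, Tcf21 and Wt1 added, and the block changed no other member's call. Leaving out 1 array gave 387 to 892 genes and 1 to 2 members called, and in those fits the log2 fold change ran from -0.40 to 0.81 for Nkx2-3 and from -0.52 to 0.68 for Maf. Without ACKR4-positive replicate 1 these were -0.08 and -0.29. Fits with 1 array fewer assume that the lone array varies like the other group, and have less precision. The smallest level well above background was -6.03 to -5.31 per array, which limits Wt1 and Tlx1. With 1 slide, no block by slide could be fitted.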

Other observations

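The gene next to Nr2f2 was also higher in ACKR4-positive cells. B130024G19Rik, a long non-coding RNA that overlaps the start of Nr2f2 in RefSeq on the other strand, had levels of -5.49 and -5.44 in ACKR4-negative cells, against -3.004 and -3.71 in ACKR4-positive cells. Both ACKR4-positive arrays were higher, and the log2 fold change was 2.11 ± 0.35 (adjusted p = 0.0468 by limma). Its probe, on chromosome 7 at 77555944 to 77556003 (mm9), is not that of Nr2f2. The ACKR4-negative levels of this gene lay near the lowest levels well above background on those arrays (-5.58 and -5.56). The stricter filter, which requires all 4 arrays well above background, did not test it. The call was lost with normexp (0.72, adjusted p = 0.284), with no filter on dim probes (0.0611), with a trended prior (0.0587) and in all but 1 of the 4 fits without 1 array (adjusted p up to 0.198). Of the 20 nearest genes with a probe on either side of the 10 members, 9 were tested and this was the 1 called. It was singled out after its value was seen.

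Because both genes at this locus rose, the 250 bases before the RefSeq start of Nr2f2 are shown, on the minus strand of GRCm38.p6 at chr7:70366747-70366996, with the match to CANNTG in capitals.
Nr2f2: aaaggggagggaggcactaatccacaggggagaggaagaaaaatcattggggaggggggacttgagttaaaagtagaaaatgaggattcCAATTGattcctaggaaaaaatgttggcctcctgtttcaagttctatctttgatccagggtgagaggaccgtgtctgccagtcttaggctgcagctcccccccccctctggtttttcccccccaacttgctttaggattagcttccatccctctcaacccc
The motifs GATAA of GATA factors, AAGTG of NKX2 factors and CANNTG of bHLH factors were searched on both strands, and no match overlapped another. In the same window, 22.6%, 40.7% and 66.2% of 32851 promoters hold them. The Nr2f2 window holds CANNTG starting 161 bases before the start, and Nkx2-3 has the same letters, CAATTG, 104 bases before its start. Tcf21 has GATAA 30 bases before its start, and Tlx1 has CANNTG 188 bases before. Matches are letters in a window and say nothing of binding.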
